A study of Mus musculus with 23 samples.

Results

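This report concerns 57 mouse genes that lie on chromosome 16 beyond App and have their human counterpart on chromosome 21. The members were chosen by position and orthology, with earlier results of these data known. Each is present in 2 copies in every mouse of the series. They neighbour the Hspa13-App interval that chromosome engineering had brought to 3 copies in Ts3Yah mice and to 1 copy in Ms3Yah mice. RNA of the gastrocnemius, a calf muscle of mainly fast fibres, had been hybridised to Illumina whole-genome bead arrays, 1 array per mouse. The groups were 6 Ts3Yah mice, 5 diploid littermates of that line, 6 Ms3Yah mice and 6 diploid littermates of theirs. The labels write Ts2Yah Dup and Ts2Yah WT for the trisomic line, and these were read as the Ts3Yah mice of the study. The mice were of the C57BL6/J strain and, per the study, adult. The labels give neither sex nor age.

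Both rearranged chromosomes had been made in Hprt-deficient embryonic stem cells and backcrossed to C57BL/6J. The mouse DNA in the targeting vectors came from a different strain, per the study. Whether the rearranged chromosomes still carried donor sequence near the members was not tested. Diploid littermates lack these chromosomes, and the part of any such sequence in the members' values was not tested either. The inserted vectors leave App without an extra working copy in Ts3Yah and Hspa13 at 2 working copies there, while both genes are at 1 copy in Ms3Yah. A further diploid mouse of the Ts3Yah line had been set aside by the study and is not used here. Of the 57 members, 54 had at least 1 of 119 array probes, and Adamts5, Hunk and Sh3bgr had none. Over the array, 19057 genes had a probe. In bulk muscle, fewer cells of a type and less RNA per cell cannot be told apart.

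In people with a full trisomy 21 these genes are present in 3 copies, and many of the best-known candidate genes for Down syndrome are among them. Dyrk1a encodes a dosage-sensitive kinase, Rcan1 an inhibitor of the phosphatase calcineurin, Sod1 the cytosolic superoxide dismutase, and Runx1, Erg and Ets2 are transcription factors. A run of receptor chains for interferons and interleukin-10 lies in the same stretch. In Ts3Yah and Ms3Yah mice none of these genes is itself gained or lost, so their transcripts show whether a neighbouring gain or loss is accompanied by a change beyond its border.

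Detection was read from the p-value deposited with each signal, and a gene counted as detected when a probe had p under 0.05 on every array of at least 1 group. By that rule 33 of the 57 members were detected, 30 of them in all 4 groups. The 30 include Sod1, Cct8, a subunit of the TRiC chaperonin, Ttc3, a ubiquitin ligase, and the chromatin protein Hmgn1. Dscr3 met the rule in 3 groups, and Setd4 and Urb1 in 1 group each. The brightest probes of the other 21 members were picked up on 0 to 9 of the 23 arrays. Among these were Runx1 on 8 arrays, Mx2 on 9, Ifnar1 on 2, and Erg, Synj1 and Cyyr1 on none. A second Erg probe was detected on 1 array, of a Ts3Yah diploid mouse.

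**Figure D1:**
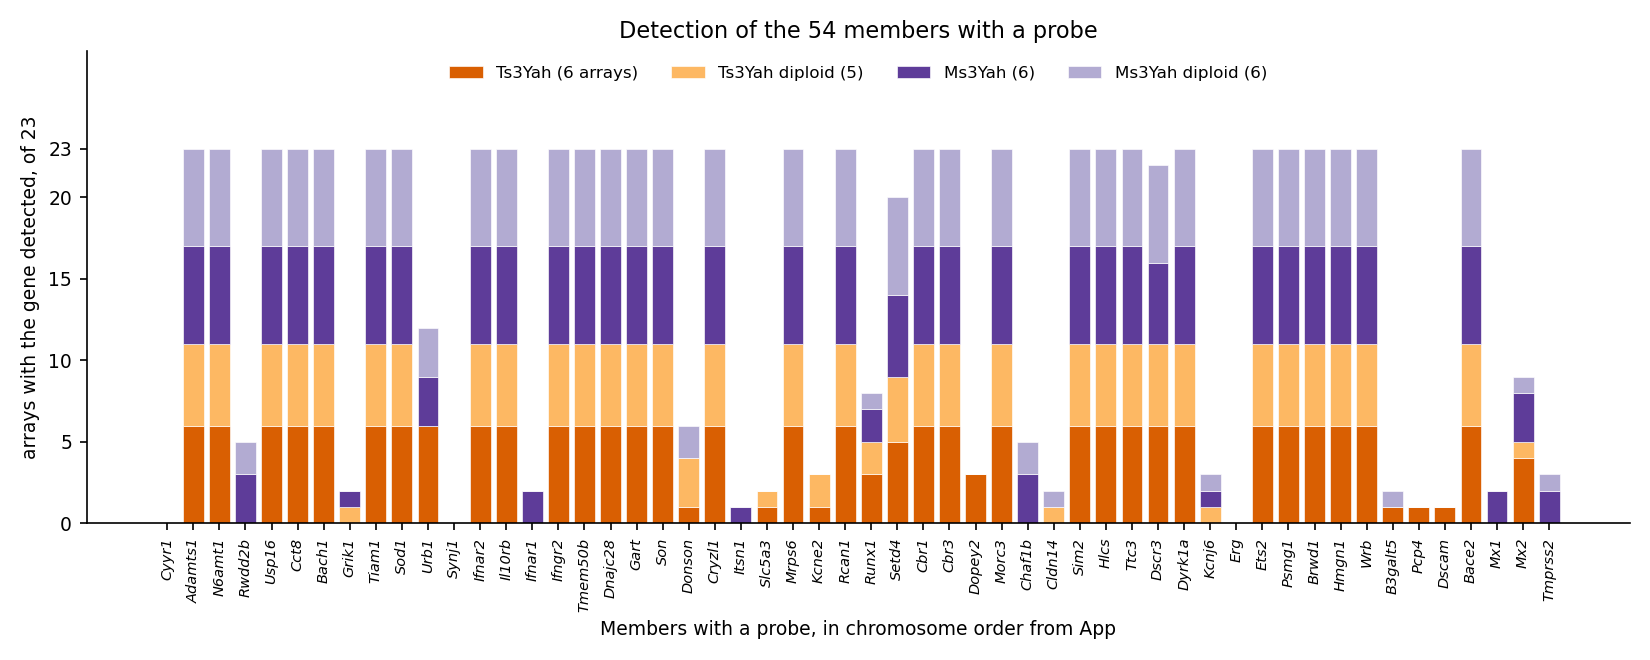
Number of arrays, of 23, on which the brightest probe of each of the 54 members was detected (p under 0.05), stacked by group and ordered along the chromosome from App. Most members are detected on all arrays or on few: the undetected members reach at most 9 arrays.

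Detection is given by role, beside 8993 detected genes of 19057 on the whole array. All 4 genes of antioxidant defence and carbonyl reduction were detected (Sod1, Cbr1, Cbr3 and Bach1), as were 5 of 6 genes of metabolism, ribosome and nucleolus, 4 of 5 of protein folding and ubiquitin handling, and 3 of 4 of the interferon and interleukin-10 receptor chains. None of the 5 channel, transporter and junction genes (Grik1, Kcne2, Kcnj6, Slc5a3 and Cldn14) was detected, and neither of the interferon-induced Mx1 and Mx2. For chromatin, transcription and replication the count was 8 of 12, for signalling 3 of 3 with a probe, for endocytosis and trafficking 2 of 5, and for proteases and matrix 2 of 3 with a probe. Each gene is described below by its brightest probe, after quantile normalisation of the 23 arrays.

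The muscle identity of the samples was plain, since all 9 measured fibre genes, such as Ckm and Acta1, were detected. Raw array medians ran from 84.7 to 101.5 and each array detected 16945 to 18669 of 45281 probes. Correlations between arrays were 0.973 to 0.995. The summed signal of 6 endothelial markers, 5 of them detected, was 2450 to 2904 in Ts3Yah and 2706 to 3268 in their diploid littermates, and 3005 to 3424 in Ms3Yah against 2561 to 3198 in theirs. For 4 adipocyte markers, all detected, it was 756 to 1100 and 561 to 1826 in the Ts3Yah line, and 677 to 4916 and 861 to 6022 in the Ms3Yah line, aneuploid mice first in each. The 6 fibroblast and matrix markers, all detected, summed to 13685 to 16780 in Ts3Yah and 10837 to 18171 in their littermates, and to 15132 to 22248 in Ms3Yah against 13074 to 17708. Among them Col1a1 had a log2 change of 0.65 in Ms3Yah, while the others changed by -0.02 (Pdgfra) to 0.42 (Col1a2). The 3 nerve and Schwann cell markers, 2 of them detected, summed to 1451 to 2287 in Ts3Yah and 1423 to 4789 in diploid littermates. In the Ms3Yah line the sums were 1643 to 2571 and 1419 to 2447, aneuploid mice first. Mb, the myoglobin gene, changed by -0.27 in Ts3Yah, while the other measured fibre genes changed by -0.03 (Tnni2) to 0.07 (Acta1). The part of these shifts in the members' values was not tested.

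Interval genes set the yardstick for a copy-number response. App, the amyloid precursor, had a mean signal of 1305 in Ms3Yah and 2381 in diploid littermates, a log2 change of -0.87 ± 0.07 (SE; n = 6 and 6; limma adjusted p = 0.000489). In Ts3Yah, where App gains no working copy, its log2 change was -0.03. Atp5j, a stalk subunit of ATP synthase, changed by 0.37 ± 0.05 in Ts3Yah and by -0.62 ± 0.06 in Ms3Yah on the log2 scale (limma adjusted p = 0.136 and 0.0012). A dimmer Atp5j probe changed by 0.48 and -0.86 (limma adjusted p = 0.0448 and 0.00189), and the dimmest detected one by 0.38 and -0.47. Chodl, a muscle membrane lectin, changed by 0.54 and -0.72, D16Ertd472e by 0.34 and -0.63, and Jam2, a junction molecule, by 0.09 and -0.37. Usp25, a deubiquitinase gene, was lower in both lines, by -0.32 in Ts3Yah and -0.46 in Ms3Yah, so that the yardstick does not hold for every interval gene. Over the 8 detected interval genes the median log2 change was 0.12 in Ts3Yah and -0.54 in Ms3Yah.

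The 33 detected members had medians near 0. Their median log2 change was 0.003 in Ts3Yah and 0.012 in Ms3Yah, beside -0.003 and -0.005 over all 8993 detected genes. In Ts3Yah 18 members lay above 0 and 15 below, with a range of -0.37 to 0.23. In Ms3Yah 20 lay above and 13 below, between -0.23 and 0.30. The median size of the change regardless of sign was 0.09 in Ts3Yah and 0.06 in Ms3Yah, and over all detected genes 0.06 in both.

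No member passed the test in either line. A probe was called when its limma p-value, adjusted over all expressed probes by the method of Benjamini and Hochberg, was under 0.05. Called were 0 members in Ts3Yah, where 2 of 43917 probes passed (0.00455%), and 0 in Ms3Yah, where 8 of 44363 did (0.018%). The test of the difference between the Ts3Yah and the Ms3Yah effect also called 0 members, with 12 of 45139 probes called in all (0.0266%). The lowest limma adjusted p of a member was 0.689 in Ts3Yah, 0.843 in Ms3Yah and 0.412 for the difference. The methods' t-test also called 0 members in each comparison, and before adjustment it gave 6, 4 and 7 members with p under 0.05.

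Since failing a test does not show absence of change, each member's 95% interval was set against the change that its signal would make if its transcript followed the interval's copy number. That change was computed from the signal above background, taken as 87.7, the median signal of 14540 probes detected on no array, multiplied by 3/2 or 1/2. The comparison addresses only a change of that full size and does not address smaller ones. In Ts3Yah the interval lay wholly below the copy-number value for 28 of the 33 detected members. In Ms3Yah it lay wholly above it for 30 of 33, and 26 members met both conditions. Of the 8 interval genes, 4 did so in Ts3Yah (Usp25, Jam2, Atp5j and App) and 1 in Ms3Yah (Atp5j). These results are for the brightest probes. The dimmer detected Atp5j probes held the copy-number value within their intervals in both lines. For the brighter of these the changes were 0.48 and -0.86, against copy-number values of 0.53 and -0.85. In Ts3Yah a dimmer Jam2 probe also held the value, while other dimmer Jam2 probes lay below it.

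The members whose interval held the copy-number value were mostly those near background or with a wide spread. In Ts3Yah they were N6amt1, Bach1, Adamts1 and Setd4, while the interval of Urb1 lay wholly above the value. In Ms3Yah they were Tiam1, Dscr3 and Setd4. Sod1, a bright probe far above background, gives an example. Its log2 change in Ts3Yah was -0.003, with an interval of -0.16 to 0.16 against 0.58 for 3 copies. In Ms3Yah it was -0.16, with an interval of -0.29 to -0.02 against -0.98 for 1 copy.

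**Figure D2:**
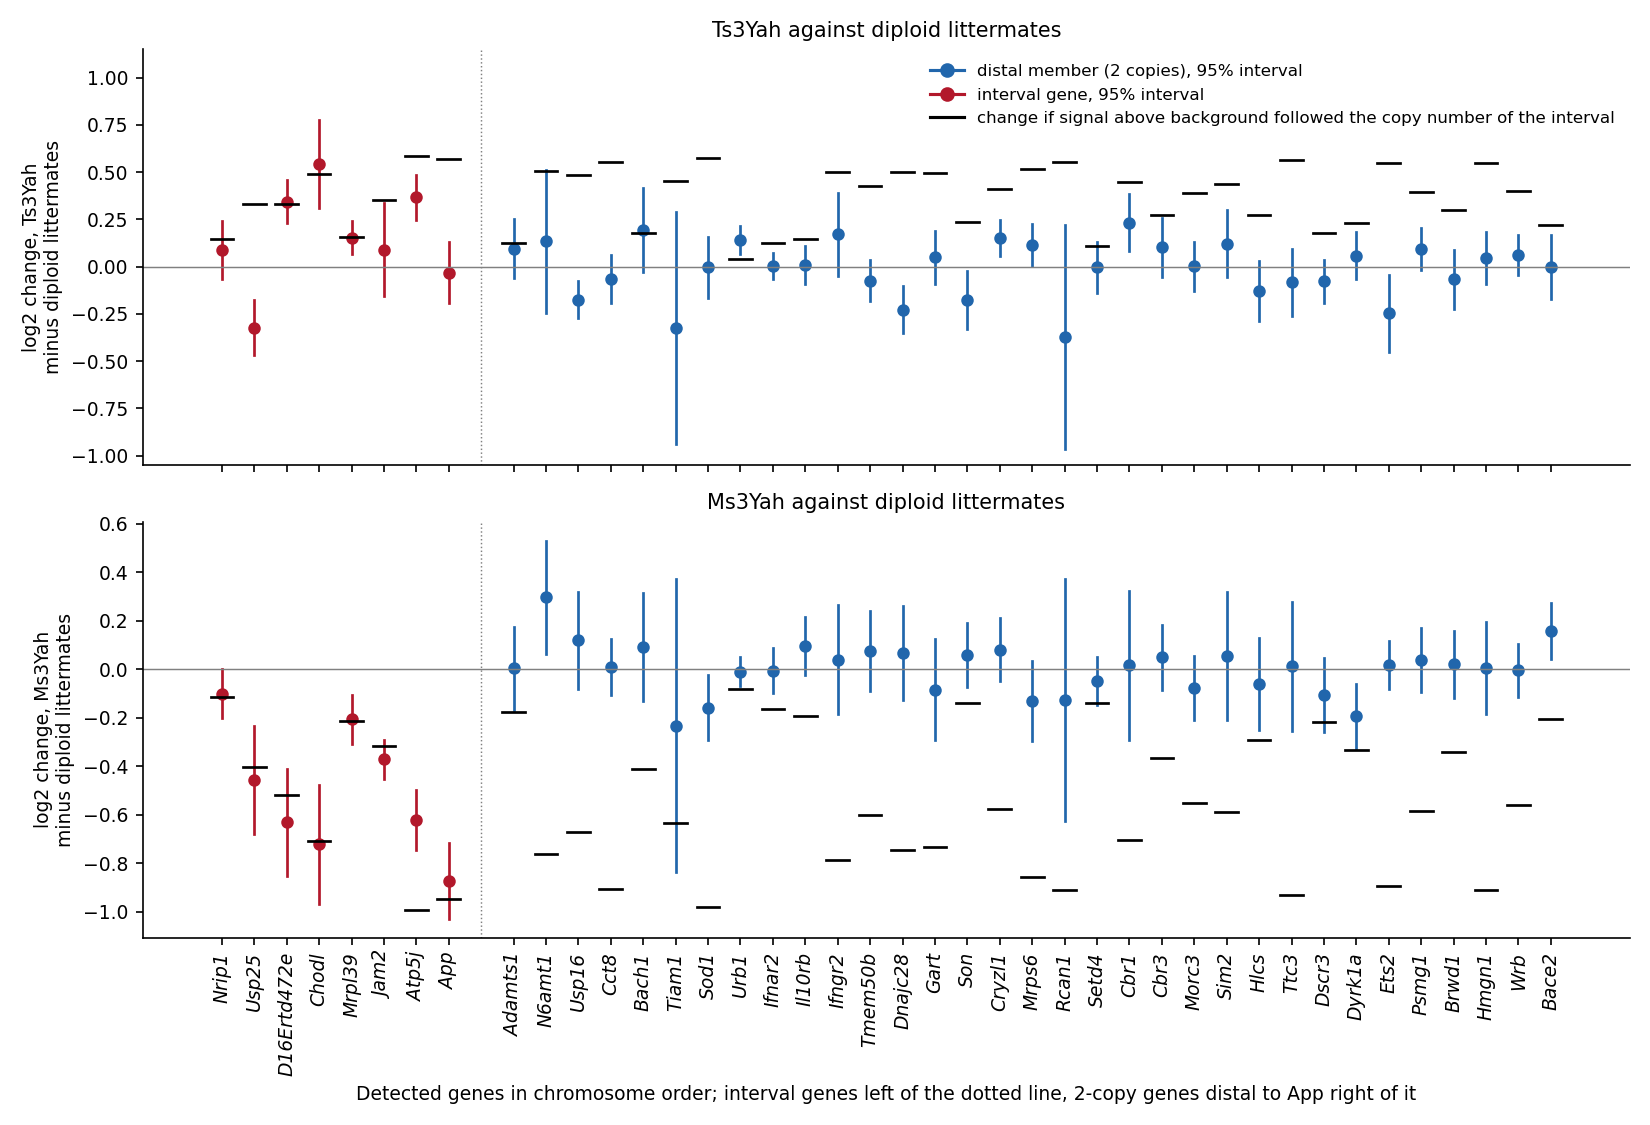
Log2 change of each detected gene (points) with its 95% interval (vertical lines) in Ts3Yah (top) and Ms3Yah (bottom) against diploid littermates, in chromosome order; black ticks mark the change if the signal above background followed the interval's copy number. All 8 interval genes lie below 0 in Ms3Yah, whereas the 33 distal members scatter around 0 in both lines.

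Before adjustment, 8 of the 33 detected members (24.2%) had p under 0.05 in Ts3Yah, where 9.56% of all detected genes did. In Ms3Yah the count was 4 (12.1%) against 8.5% of all detected genes, and for the difference between lines 7 (21.2%) against 9.07%. No member was among these in both lines. Mx1 had p under 0.05 in Ms3Yah as well, on a probe detected on 2 of 23 arrays. Urb1, counted among the 8 and the 7, met the detection rule only in Ts3Yah, the group in which it was higher. These counts changed with the normalisation. With each array scaled to its median instead, 1 member (3.03%) remained in Ts3Yah against 3.66% of all detected genes, 1 (3.03%) in Ms3Yah against 4.35%, and 3 (9.09%) for the difference against 3.42%. With normexp background correction the Ts3Yah count was 7 (21.2%) against 8.92%, and with the series matrix values 6 (18.2%) against 7%. Without diploid mouse 34925 the Ts3Yah count was 5.

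Usp16 and Urb1 were the members whose Ts3Yah values did not overlap those of diploid littermates, 1 lower and 1 higher. Over all detected genes this held for 0.712% in Ts3Yah and for 0.389% in Ms3Yah, where no member did so. Urb1 entered the detected members only through Ts3Yah, where it was higher, so its place in this count is no separate support. The promoters of Usp16 and Urb1 shown here run from upstream of the annotated start to just beyond it. They were picked because the signals of these genes were shifted in opposite directions. The sequences are from RefSeq on GRCm38.p6, at chr16:87454735-87455034 on the + strand for Usp16 and chr16:90810364-90810663 on the - strand for Urb1. Capitals mark CCGGAA on either strand, the core that ETS factors bind, since Ets2 and Erg are members and the ETS factor gene Gabpa lies in the interval.
Usp16: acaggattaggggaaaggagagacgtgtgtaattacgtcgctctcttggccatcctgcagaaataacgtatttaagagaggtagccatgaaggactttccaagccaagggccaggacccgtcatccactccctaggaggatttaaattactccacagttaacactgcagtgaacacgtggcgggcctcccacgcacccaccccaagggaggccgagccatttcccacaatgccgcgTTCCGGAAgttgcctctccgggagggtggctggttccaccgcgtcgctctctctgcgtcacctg
Urb1: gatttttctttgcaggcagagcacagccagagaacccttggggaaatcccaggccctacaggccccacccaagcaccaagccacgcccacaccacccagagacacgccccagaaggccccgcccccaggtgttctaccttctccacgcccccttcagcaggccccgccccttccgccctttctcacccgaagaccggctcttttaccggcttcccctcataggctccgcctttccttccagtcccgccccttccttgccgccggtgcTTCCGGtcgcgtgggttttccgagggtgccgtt

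In Usp16 the matches on the - and + strands overlap, starting 14 and 12 bases before the start site. In Urb1 a single match begins 18 bases into the transcript. The core stood in 15 of 64 promoters of the 48 members matched by symbol (23.4%), and in 14.9% of the 32851 promoters of the table. Usp16, Urb1, Cct8, Gart, Hlcs, Psmg1, Setd4 and Dscr3 held it among the 30 detected members with a listed promoter. Of these 8, Usp16 and Urb1 had p under 0.05 in Ts3Yah, beside 8 of all 33 detected members, and none did in Ms3Yah. The listed promoters of Dnajc28 and Son, both lower in Ts3Yah before adjustment, held no match. A RUNX core, TGTGGT, stood in 7.81% of the member promoters and 16.8% of all. TGAGTCA, the core read by Bach1 and its partners, was found in 1.56% and 5.2%. Gabpa itself met the detection rule in no group. Its brightest probe was detected on 5 of 6 Ts3Yah arrays and 4 of 5 of their diploid littermates, with mean signals of 106 and 102. In Ms3Yah the mean was 93.6, against 97.1 in diploid littermates. A second Gabpa probe changed by 0.08 in Ts3Yah and -0.13 in Ms3Yah (limma unadjusted p = 0.111 and 0.0286). The study reports that Gabpa expression followed gene dosage in muscle of both lines.

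Usp16, a deubiquitinase of histone H2A, lies close to the border. Its signal in Ts3Yah ranged from 374 to 404, with a median of 389. The 5 diploid littermates had 410, 445, 413, 489 and 431. Every Ts3Yah mouse thus lay below every littermate, although the gene is not lost, and the direction is opposite to that of a gained copy. The log2 change was -0.17 ± 0.05 (SE; limma unadjusted p = 0.00205, adjusted p = 0.762). In Ms3Yah the lowest, median and highest values were 338, 358 and 461, against 270, 350 and 382 in diploid littermates, and the groups overlapped. A second, dimmer probe of Usp16 changed by -0.01 in Ts3Yah. The study measured Usp16 and the other border genes, Adamts1, Adamts5, Cct8 and Bach1, by quantitative PCR. It reports no significant change of these genes in either line.

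Urb1, a nucleolar protein of ribosome assembly, was measured close to background. Its signal was 98.6 to 109 in Ts3Yah, with a median of 102. The diploid littermates had 92.3, 93.0, 97.1, 91.6 and 91.5, and the probe was detected on none of their arrays and on all 6 Ts3Yah arrays. It entered the detected members only through the group in which it was higher. Taken against the lowest signal called detected on each array, Urb1 was at least 1.05-fold higher in Ts3Yah (limma adjusted p = 0.689). In Ms3Yah it averaged 97.9, against 98.5 in diploid littermates.

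Dnajc28 and Son were also lower in Ts3Yah before adjustment, as was Ets2. Dnajc28, a J-domain protein gene, ranged from 405 to 481 in Ts3Yah with a median of 439. The littermates had 570, 499, 519, 466 and 528, so that a single littermate fell within the Ts3Yah range. The log2 change was -0.23 ± 0.06 (limma unadjusted p = 0.00165, adjusted p = 0.732). A second, dimmer Dnajc28 probe changed by -0.01. Ets2, an ETS transcription factor, averaged 1030 ± 106 in Ts3Yah and 1229 ± 184 in littermates (SD, n = 6 and 5), and Son, a nuclear protein of RNA splicing, 121 ± 9.0 and 137 ± 14.5. A second, dimmer Son probe went the other way, with means of 108 in Ts3Yah and 104 in littermates (log2 change 0.05, 95% interval -0.05 to 0.15). In Ms3Yah the log2 changes were 0.07 for Dnajc28, 0.02 for Ets2 and 0.06 for Son (brightest probes). Gart, the purine synthesis enzyme whose gene stands between Dnajc28 and Son, changed by 0.05 in Ts3Yah and -0.09 in Ms3Yah.

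**Figure D3:**
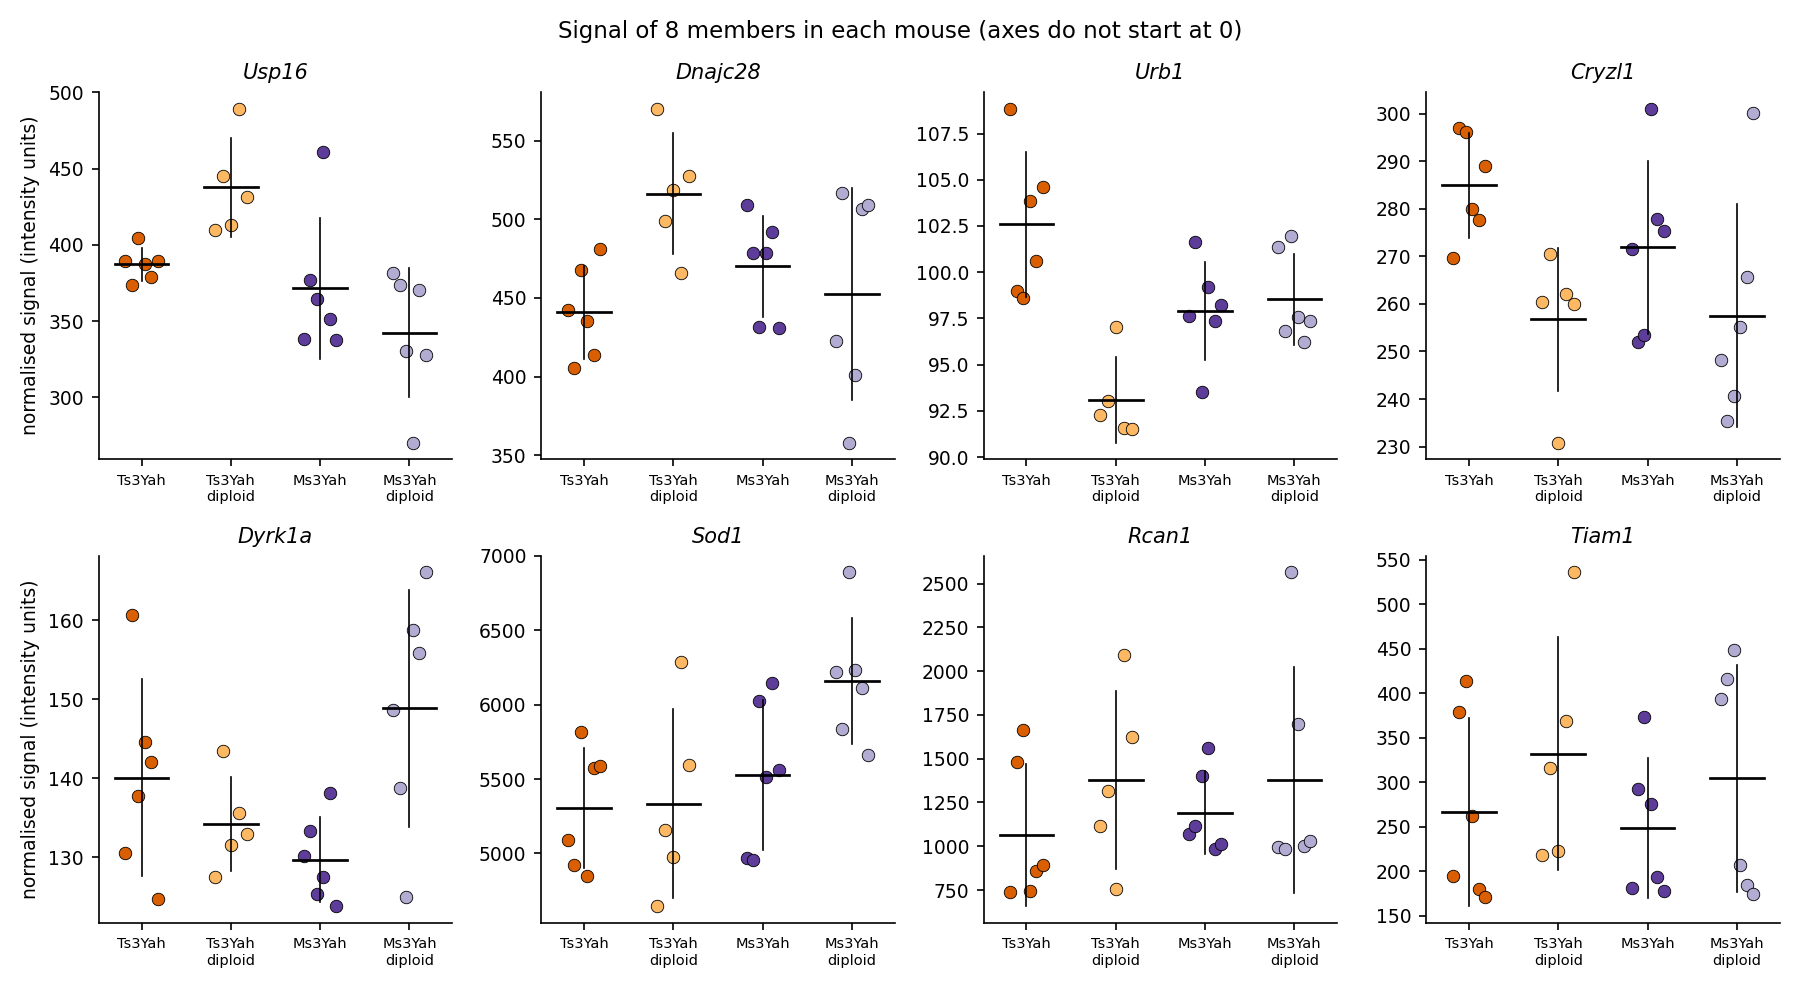
Normalised signal of 8 members in each mouse (points), with the group mean (bar) and SD (line); aneuploid mice stand left of their diploid littermates. Usp16 and Urb1 do not overlap in the Ts3Yah line, whereas Rcan1 and Tiam1 vary widely within every group. Urb1 met the detection rule only in Ts3Yah.

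The members that were higher in Ts3Yah before adjustment were Urb1, Cryzl1, Cbr1 and Mrps6. Cryzl1, related to quinone oxidoreductases, ranged from 270 to 297 in Ts3Yah with a median of 285. Its littermates had 260, 270, 231, 262 and 260, and 1 littermate lay just above the lowest Ts3Yah mouse, both at 270 after rounding. The log2 change was 0.15 ± 0.04 in Ts3Yah (limma unadjusted p = 0.00423, adjusted p = 0.802) and 0.08 ± 0.06 in Ms3Yah. Cbr1, a carbonyl reductase, averaged 377 ± 32.7 in Ts3Yah and 321 ± 28.1 in littermates. Mrps6, of the small mitochondrial ribosomal subunit, averaged 707 ± 47.4 and 653 ± 33.3. Cbr3, next to Cbr1, changed by 0.10 in Ts3Yah and 0.05 in Ms3Yah.

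In Ms3Yah the leading members before adjustment were Dyrk1a, Bace2, N6amt1 and Sod1. Dyrk1a ranged from 124 to 138 in Ms3Yah with a median of 129, and from 125 to 166 in diploid littermates with a median of 152. The groups overlapped through 1 low littermate. The log2 change was -0.19 ± 0.06 in Ms3Yah (limma unadjusted p = 0.00769, adjusted p = 0.843) and 0.06 ± 0.06 in Ts3Yah, and the difference between these effects was 0.25 with a 95% interval of 0.07 to 0.43. A second detected Dyrk1a probe changed by -0.04 in Ms3Yah and -0.05 in Ts3Yah.

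Sod1 ranged from 4958 to 6147 in Ms3Yah with a median of 5539, and from 5661 to 6891 in diploid littermates with a median of 6168 (log2 change -0.16 ± 0.06, limma unadjusted p = 0.0253, adjusted p = 0.949). The groups overlapped. In Ts3Yah it ranged from 4849 to 5814 with a median of 5333, and the 5 diploid littermates had 4646, 5160, 4977, 6289 and 5598. A second, dimmer Sod1 probe changed by 0.04 in Ms3Yah and 0.11 in Ts3Yah. Without Ms3Yah mouse 37039 or 37038, or diploid mouse 37075, Sod1 no longer had p under 0.05, the highest such p being 0.061. Bace2, a protease related to the secretase that cleaves App, was higher in Ms3Yah. It ranged from 125 to 138 with a median of 134, against 112 to 140 with a median of 115 in littermates, where 1 mouse at 140 lay above all Ms3Yah mice (limma unadjusted p = 0.011, adjusted p = 0.862). In Ts3Yah Bace2 ranged from 113 to 142 with a median of 133, and its littermates had 143, 106, 135, 132 and 139. N6amt1, a methyltransferase, ranged from 469 to 782 in Ms3Yah with a median of 590, and from 435 to 554 in littermates with a median of 482 (limma unadjusted p = 0.0162, adjusted p = 0.897). In Ts3Yah it ranged from 467 to 689 with a median of 609, within the span of its littermates at 669, 387, 780, 467 and 436.

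Between the lines, the 7 members whose effects differed before adjustment were Urb1, Dyrk1a and Mrps6, with a more positive change in Ts3Yah, and Usp16, Dnajc28, Ets2 and Son, with a more negative one. The Ts3Yah minus Ms3Yah difference of log2 changes was 0.15 ± 0.04 for Urb1 (limma unadjusted p = 0.00112, adjusted p = 0.412). It was -0.29 ± 0.11 for Usp16 and -0.29 ± 0.11 for Dnajc28, and 0.25 ± 0.10 for Mrps6. For Ets2 it was -0.26 and for Son -0.24.

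The remaining members near the border had no p under 0.05. Adamts1, a secreted metalloproteinase, averaged 115 ± 10.3 in Ts3Yah and 108 ± 10.6 in diploid littermates, and 115 ± 17.5 in Ms3Yah against 114 ± 4.1 in theirs. Cct8 averaged 1208 ± 61.7 in Ts3Yah and 1267 ± 116 in littermates, and 1309 ± 54.5 in Ms3Yah against 1302 ± 111. In Ts3Yah Cct8 ranged from 1117 to 1279, and the littermates had 1243, 1248, 1121, 1446 and 1278. Adamts1 ranged from 104 to 130 in Ts3Yah, and its littermates had 102, 125, 108, 105 and 97.4. The groups overlapped in both genes. Bach1, the haem-regulated repressor of antioxidant genes, averaged 137 ± 22.3 and 119 ± 11.2 in the Ts3Yah line, aneuploid mice first, with a log2 change of 0.19 (95% interval -0.03 to 0.42). In Ts3Yah it ranged from 112 to 171 with a median of 134, and its littermates had 132, 116, 125, 102 and 121. In Ms3Yah its change was 0.09 (-0.13 to 0.32), with values of 157 to 223 against 135 to 197 in littermates.

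Within the receptor cluster none of the 3 detected chains had p under 0.05. Ifnar2, a chain of the type I interferon receptor, changed by 0.003 in Ts3Yah and -0.01 in Ms3Yah. Il10rb, shared by receptors for interleukin-10 and related cytokines, changed by 0.01 and 0.10, and Ifngr2, of the interferon gamma receptor, by 0.17 and 0.04 (95% interval in Ts3Yah -0.05 to 0.39). The other detected probes of Ifngr2, both dimmer, changed by -0.04 and -0.03 in Ts3Yah. The counts by role that follow are small and stand beside 9.56% and 8.5% of all detected genes in Ts3Yah and Ms3Yah. With median scaling, Urb1 and Dyrk1a were the members that still had p under 0.05 in Ts3Yah and Ms3Yah, 1 in each line. Of the 8 detected members of chromatin, transcription and replication, Ets2 and Son had p under 0.05 in Ts3Yah, both lower, and N6amt1 in Ms3Yah, higher. In metabolism, ribosome and nucleolus, 3 of 5 had p under 0.05 in Ts3Yah, all higher (Urb1, Cryzl1 and Mrps6), and none in Ms3Yah. Urb1 counts there only because it was detected in Ts3Yah. Wrb, which inserts tail-anchored proteins, and Dscr3, an endosomal sorting protein, changed by 0.06 and -0.08 in Ts3Yah and by -0.005 and -0.11 in Ms3Yah.

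The median SD between mice of a group, pooled over the 4 groups, was 0.13 on the log2 scale for the members and 0.13 for all detected genes. Tiam1, an activator of the GTPase Rac, had the largest spread (SD 0.55), followed by Rcan1 (0.49) and N6amt1 (0.28). Rcan1 ranged from 738 to 1667 in Ts3Yah with a median of 874. Its 5 diploid littermates had 1117, 1314, 754, 2091 and 1626. In Ms3Yah it ranged from 983 to 1564 with a median of 1093, and in the littermates from 983 to 2565 with a median of 1015. Its log2 change in Ts3Yah, -0.37, had an interval of -0.97 to 0.22, which is wide and includes 0. Tiam1 ranged from 171 to 414 in Ts3Yah with a median of 229, while its littermates had 218, 316, 222, 369 and 536. In Ms3Yah it ranged from 178 to 374 with a median of 234, and in littermates from 174 to 449 with a median of 301.

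Values were then read along the chromosome, away from App. Across the 33 detected members, which are not independent replicates, Spearman's rho between place from App and log2 change was -0.11 in Ts3Yah, -0.12 in Ms3Yah and 0.01 for the difference between lines. For the size of the change regardless of sign rho was -0.24, -0.18 and -0.24. The 10 members nearest App had median log2 changes of 0.006 in Ts3Yah and 0.007 in Ms3Yah, beside 0.001 and 0.017 for the 23 farther ones. Another list held 23 non-member genes distal to App, also with human chromosome 21 counterparts, some lying between the members. The 11 of them that were detected had medians of -0.03 and 0.03. On the other side of the interval, 233 detected proximal genes had medians of -0.003 and 0.003. None of these other distal or proximal genes was called in either line.

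**Figure D4:**
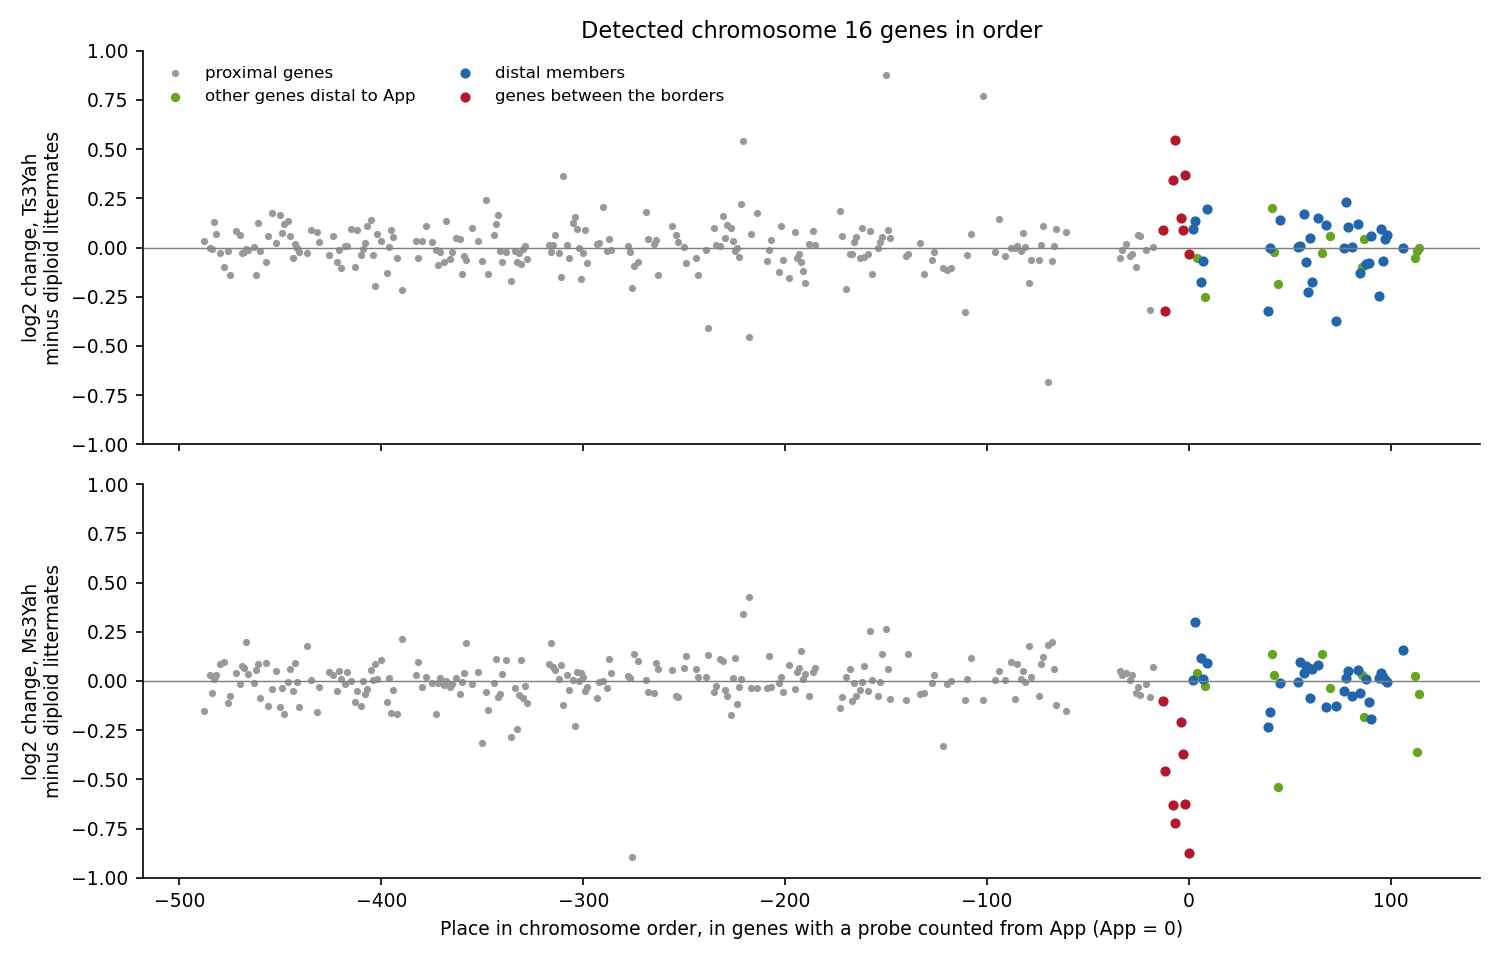
Log2 change of each detected chromosome 16 gene in Ts3Yah (top) and Ms3Yah (bottom) against diploid littermates, by its place in gene order from App (App = 0). In Ms3Yah the genes between the borders lie below 0, and the members beyond App have a median of 0.012.

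The diploid mice of the lines were compared as well. The contrast of Ts3Yah diploid with Ms3Yah diploid mice, in the limma fit of all 4 groups, called 4 of the 33 detected members (12.1%), beside 6.36% of all detected genes. Usp16 and Son were higher in Ts3Yah diploid mice, by 0.36 and 0.34 on the log2 scale (limma adjusted p = 0.0158 and 0.00941). Bach1 and Mrps6 were lower there, by -0.54 and -0.38 (limma adjusted p = 0.0103 and 0.00458). Usp16 averaged 438 ± 32.2 in Ts3Yah diploid and 342 ± 42.1 in Ms3Yah diploid mice, so that its Ts3Yah mean of 387 lay between the diploid means. For Bach1 the diploid means were 119 ± 11.2 and 174 ± 23.2. The same position between the diploid groups held for the other called members. Son had a Ts3Yah median of 121, between diploid medians of 132 and 103 (Ts3Yah line first). For Mrps6 the Ts3Yah median was 719, between 646 and 839, and for Bach1 134, between 121 and 179. The labels give no array slide or processing day, and cohort and any such batch cannot be told apart.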

How the data were processed

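Gastrocnemius RNA of 23 mice in 4 groups was measured on Illumina MouseWG-6 v2.0 arrays. The deposited probe signals are intensity values, neither background-subtracted nor normalised between arrays, and the authors give a detection p-value beside each. A second deposited table holds intensity values after background subtraction and quantile normalisation. Its linear scale was read from the values, whose rank order on an array matches that of the first table. The method of background subtraction stays unknown. Its column medians ran from 3.82 to 3.83 in Ts3Yah, 3.82 to 3.85 in Ts3Yah diploid, 3.81 to 3.85 in Ms3Yah and 3.82 to 3.84 in Ms3Yah diploid mice. The scanner software is not given in the sources used here.

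Quantile normalisation across all 23 arrays was applied to the first table, followed by log2. Probes above the 35th percentile (89.8) on at least 1 array of a line were tested two-sided by limma 3.58.1 (lmFit, eBayes) under R version 4.3.3, with 1 fit per line and the difference between lines in 1 fit of 4 groups. P-values were adjusted over the tested probes by Benjamini and Hochberg. Signals include background, which understates the changes of dim probes. The number of arrays limits precision, and each limma p-value sets a difference between groups against the spread between these mice.

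Probes were named from the platform annotation, symbols updated through RefSeq (GRCm38.p6), which also gave gene order. Members now named Dop1b, Vps26c and Get1 are given as Dopey2, Dscr3 and Wrb. A gene's brightest probe stands for it. Per-mouse values were chosen for members with a called probe, the 4 smallest p-values in each of 3 fits, the 8 detected members nearest App, the border genes Adamts1, Adamts5, Usp16, Cct8 and Bach1, and members whose probes oppose each other. Rcan1, Ets2, Son, Cbr1, Mrps6, the role groups' examples, the copy-number comparison, the cohort contrast and the motifs were added after values had been seen. The members and lists were chosen with earlier results of these data known. The fits were tested on simulated data.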

Additional observations from a re-analysis of the deposited data

Results flagged for a closer look

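In 48 groups of 5 or 6 mice over the 12 named members, 6 held a mouse that stood apart by Dixon's criterion at 95%, where chance gives about 1 in 20. Usp16 was 461 in Ms3Yah mouse 37074, with the next mouse at 377. Cct8 was 1210 in Ms3Yah mouse 37448 (lowest), with the next at 1310. Urb1 was 97.1 and Cryzl1 was 231 in the same Ts3Yah diploid mouse, 34731. The other littermates lay at 93.0 and below for Urb1 and at 260 and above for Cryzl1. Bace2 was 106 in Ts3Yah diploid mouse 34723, with the next at 132, and 140 in Ms3Yah diploid mouse 37094, with the next at 122.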

How the results depend on the processing

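No paired analysis was possible because each replicate number names a single mouse and none recurs in another group. A slide block was not run, since no slide is given. No member was called under any alternative, with any mouse left out. The number of members with unadjusted p under 0.05 (of 54) was 8 in Ts3Yah, 5 in Ms3Yah and 7 for the difference. Median scaling gave 1, 2 and 3, and the cause was not tested. Leaving out single mice gave 5 to 11, 3 to 6 and 5 to 9; the Ts3Yah and difference counts of 5 came without diploid mouse 34925, and the Ms3Yah count of 3 without diploid mouse 37075. Of the members, 33 were detected, 33 with any mouse left out, 30 on all arrays and 52 when 1 array sufficed.

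The series matrix values gave Ts3Yah medians of 0.0427 for all detected members, 0.041 for the nearest 10 and 0.0498 for the others. Median scaling gave Ms3Yah medians of -0.00313 (nearest 10) and -0.0285 (others), and detection p under 0.01 gave 0.025 (nearest 10). With normexp background correction, rho for the difference was -0.0916. With single mice left out, rho ran from -0.0956 to -0.0428 in Ts3Yah, -0.186 to -0.0816 in Ms3Yah and -0.0344 to 0.0906 for the difference. Medians of the nearest 10 ran from -0.00058 to 0.0227 in Ms3Yah and -0.0354 to 0.0352 for the difference. For the 4 members with the smallest p in each fit, 19 alternative values kept their sign but no longer passed unadjusted p 0.05. A further 2 reversed: a second Sod1 probe in Ms3Yah (0.0363) and a second Dyrk1a probe for the difference (-0.00503). Alternative values of the other named members were not sorted by p.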
